A study of Homo sapiens with 6 samples.

Results

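The human mitochondrial genome carries 37 genes, 13 for mRNAs, 2 for rRNAs and 22 for tRNAs. Their RNA was followed here in DLD1 parental cells and in DLD1 p85β K477A/R478A mutant cells (p85β KR-AA), with 3 RNA-seq libraries of each. The members are all genes whose GENCODE symbol starts with MT-, which is 37 of the 58884 genes in the deposited table, and no measured value entered the choice. DLD1 is a human colorectal carcinoma line that carries an activating helical domain mutation of PIK3CA in both groups. In the p85β KR-AA cells, a pair of basic residues of the nuclear localization sequence of p85β, a regulatory subunit of PI3K encoded by PIK3R2, was changed to alanine at the endogenous locus. The study isolated more than 1 knock-in clone, and the libraries do not name theirs. The source names of p85β KR-AA replicates 2 and 3 give the second residue a different number from their titles and genotype labels, which were used here. The labels give no treatment, and nothing in them says that replicates came from separate cultures, so p-values measure only the spread between these libraries.

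As background, the mitochondrial genome is a small circle that is transcribed by its own polymerase, POLRMT, into long RNAs that span many genes. The heavy-strand transcript carries both rRNAs, all but 1 of the mRNAs and most tRNAs. It is cut at the tRNAs that sit between the other genes, and the freed mRNAs then differ in abundance through their own stability, for which the LRPPRC and SLIRP proteins are known. The mRNAs encode core subunits of the respiratory chain and of ATP synthase, and the remaining subunits come from the nucleus. Most of the mRNAs receive a poly(A) tail, the rRNAs a short one, and MT-ND6, the mRNA of the light strand, little or none. The library kit named in the labels selects RNA by its poly(A) tail and does not record the strand. Reads of MT-ND6 therefore cannot be told apart from heavy-strand RNA that continues past MT-ND5 on the opposite strand.

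Library depth was 20301932 to 20873475 estimated counts for parental cells and 20301396 to 26712816 for p85β KR-AA cells. Replicates of a group differed by 4.4 to 35.1 times sampling noise (chi-square per degree of freedom), so none were copies of 1 library. PIK3R2 had 524.1, 169.3 and 313.0 counts in parental replicates and 503.2, 476.0 and 124.5 in p85β KR-AA replicates, and the changed bases cannot be read from counts. Of 12 colon epithelial markers, 10 were above 1 CPM (counts scaled to a common library total) in every parental and 9 in every p85β KR-AA library, with summed levels of 44444 to 53614 and 12350 to 13942 CPM. These sums were mostly KRT8, KRT18 and KRT19, which were lower in p85β KR-AA libraries, as were CDX2, VIL1 and LGALS4. CDH1 was higher, at 40.6 to 97.8 and 458 to 496 CPM, and so was CDH17, at 3.5 to 6.71 and 35.7 to 41.6 CPM. EPCAM, KRT20, GPA33 and CDX1 overlapped between the groups. Of 12 mesenchymal markers, 3 and 7 were above 1 CPM, with sums of 5.221 to 7.761 and 8896 to 9777 CPM, the latter nearly all from VIM and FN1. VIM had 9, 13 and 14 counts in parental and 67013, 48628 and 49227 in p85β KR-AA libraries. Of the other mesenchymal markers, COL3A1, DCN and LUM had no parental count and 65 to 262 counts in p85β KR-AA libraries, COL1A1 and PDGFRB had 21 to 47 against 132 to 204, and COL1A2, PDGFRA and THY1 had at most 1 count in any library. Of 10 neuronal markers, 1 and 5 were above 1 CPM, with sums of 378.2 to 441.1 and 477.05 to 497.99 CPM. NEFL had no parental count and 179 to 184 CPM in p85β KR-AA libraries, and NEFM, SYT1 and MAP2 were also higher. TUBB3 was lower, at 377 to 440 and 281 to 303 CPM. Hepatocyte markers summed to 30.31 to 37.55 and 119.8 to 133.4 CPM and blood markers to 39.63 to 49.43 and 51.82 to 61.53 CPM, with 2 of 8 above 1 CPM in both groups on each list. The groups thus differed in cell type markers as well as in genotype, and counts cannot show whether both descend from the same line. The effect of the genotype and of this difference on the values that follow cannot be told apart.

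The share of mitochondrial mRNA overlapped between the groups, whereas rRNA took a larger share in p85β KR-AA cells and tRNA a smaller one. The 13 mRNAs together made up 2.412%, 2.441% and 2.136% of all counts in parental replicates 1, 2 and 3, and 2.361%, 2.241% and 2.734% in the p85β KR-AA replicates. These values overlapped, with means of 2.33% ± 0.168 and 2.445% ± 0.257 (SD, n = 3 each, exact two-sided permutation p = 0.6). The 2 rRNAs made up 0.2116%, 0.256% and 0.2511% of parental counts and 0.501%, 0.4978% and 0.5591% of p85β KR-AA counts. All p85β KR-AA libraries lay above all parental libraries, with a mean 2.168-fold higher (exact two-sided permutation p = 0.1, the smallest that 3 against 3 libraries allow). All 22 tRNAs together had 203, 232 and 162 counts in parental and 46, 34 and 19 in p85β KR-AA libraries, a 6.697-fold lower share of the library without overlap (exact two-sided permutation p = 0.1). With libraries scaled by their totals, the median of the 16059 genes tested was also higher in p85β KR-AA cells, by slightly more than the rRNA sum. Against that median gene the rRNA sum was therefore not raised, and the mRNA and tRNA sums lay below it. How many of all genes had shares of the library without overlap was not counted. Counting error was small for mRNA and rRNA, with a Wilson 95% interval of at most ±0.00709 percentage points around a library's share, and this interval covers counting error only. Counts per library do not separate fewer mitochondrial genomes per cell from less RNA made from each, nor less RNA per cell from fewer cells of 1 kind.

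**Figure D1:**
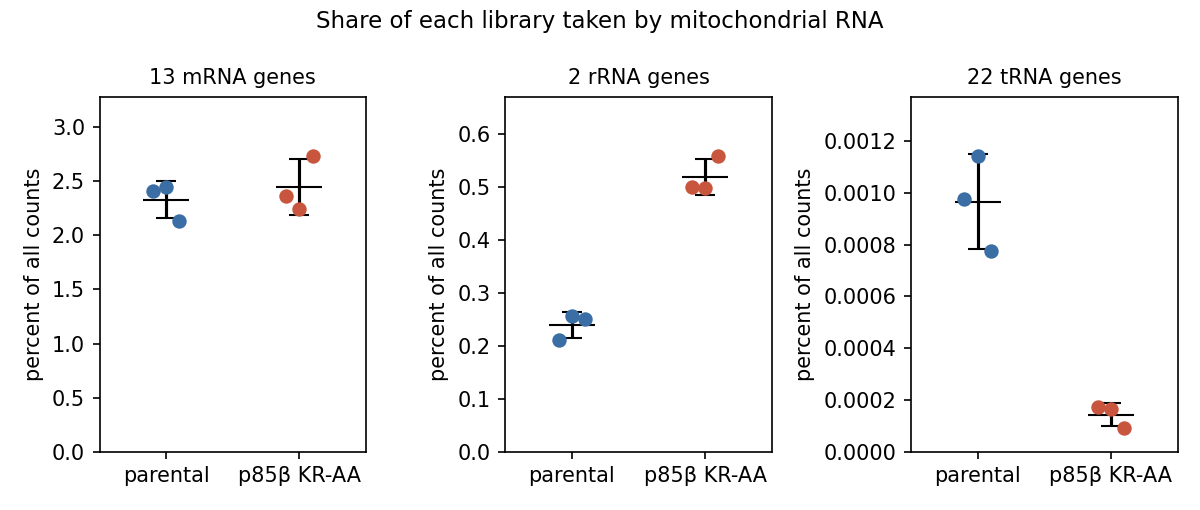
Percent of all counts taken by the 13 mRNA, 2 rRNA and 22 tRNA genes of the mitochondrial genome, with 1 point per library and the mean ± SD of 3 libraries in black. The groups overlap for mRNA and are apart for rRNA, with parental means of 0.2396% against 0.5193%, and for tRNA.

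Although the summed mRNA share overlapped, the composition of the mRNA differed widely. Each mRNA was first expressed as a percent of the summed counts of the 13 in its own library, a measure that does not depend on how libraries are scaled to each other. The tests come from an edgeR quasi-likelihood fit over 16059 genes in which libraries were scaled by that sum, so that a fold change is relative to the 13 mRNAs. On this scale 6 mRNAs were higher in p85β KR-AA cells, 5 were lower and 2 did not pass an adjusted p of 0.05. Across all genes 58.9% were higher and 20.2% lower on the same scale, whose median gene lay at a log2 fold change of 1.17, so the background is itself far from even. For 12 of the 13 mRNAs, the p85β KR-AA libraries lay all above or all below the parental libraries, as they did for 82.5% of all genes when divided by the same sum.

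The 4 mRNAs that lost most of their share were MT-ND3, MT-CO3, MT-ND1 and MT-CO2. MT-ND3 (ENSG00000198840, chrM:10059-10404), a small membrane subunit of complex I, made up 4.96%, 5.53% and 4.98% of the 13 mRNAs in parental and 1.05%, 1.11% and 0.985% in p85β KR-AA libraries. This was the largest change among the 13, 4.914-fold lower with no overlap (log2 fold change −2.30, standard error 0.12, adjusted p = 1.07e-07). MT-CO3 (ENSG00000198938, chrM:9207-9990), a core subunit of cytochrome c oxidase, held 18.7%, 19.99% and 17.1% against 7.36%, 7.77% and 7.56%. Its share was 2.462-fold lower (log2 fold change −1.30, standard error 0.10, adjusted p = 8.62e-07). MT-ND1 (ENSG00000198888, chrM:3307-4262), a complex I subunit near the quinone site, held 7.51%, 6.78% and 6.65% against 3.54%, 3.71% and 3.55%, and was 1.938-fold lower (adjusted p = 1.03e-05). MT-CO2 (ENSG00000198712, chrM:7586-8269), the oxidase subunit that takes electrons from cytochrome c, held 16.8%, 17.9% and 16.2% against 10.3%, 9.99% and 9.68%, and was 1.701-fold lower (adjusted p = 2.03e-05). In each of these the lowest parental library lay well above the highest p85β KR-AA library.

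The mRNAs with the largest gains in share were MT-ND5, MT-ND4, MT-ND4L and MT-CO1. MT-ND5 (ENSG00000198786, chrM:12337-14148), a proton-pumping complex I subunit, made up 3.65%, 2.63% and 3.63% of the 13 in parental and 8.59%, 7.86% and 8.74% in p85β KR-AA libraries. It was 2.544-fold higher with no overlap (log2 fold change 1.35, standard error 0.14, adjusted p = 5.83e-06). MT-ND4 (ENSG00000198886, chrM:10760-12137), another proton-pumping subunit, held 6.84%, 6.65% and 7.87% against 14.2%, 14.3% and 14.03%, which was 1.994-fold higher (adjusted p = 5.85e-06). MT-ND4L, which shares an mRNA with MT-ND4, held 0.750%, 0.571% and 0.738% against 1.42%, 1.19% and 1.14% (1.823-fold higher, adjusted p = 0.000384). These 3 complex I mRNAs thus moved against MT-ND3 and MT-ND1 of the same complex.

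MT-CO1 (ENSG00000198804, chrM:5904-7445), the catalytic subunit of cytochrome c oxidase, was the largest single component in both groups, with 24.4%, 24.8% and 25.8% of the 13 in parental and 37.4%, 37.5% and 38.3% in p85β KR-AA libraries. It was 1.508-fold higher with no overlap (log2 fold change 0.59, standard error 0.08, adjusted p = 4.92e-05), opposite in direction to MT-CO2 and MT-CO3. MT-ND2, a further complex I pump, held 3.62%, 3.25% and 3.96% against 4.73%, 5.12% and 4.80% (1.352-fold higher, adjusted p = 0.00516). MT-ND6 held 1.36%, 1.34% and 1.54% against 1.84%, 1.92% and 1.88% (1.331-fold higher, adjusted p = 0.00961). The call of MT-ND2 ended with a correction for gene length and GC content (adjusted p = 0.315), and that of MT-ND6 ended with the same correction (0.0916) and with replicate number included as a block (0.0612).

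The remaining 3 mRNAs changed least. MT-CYB, the only subunit of complex III encoded in mitochondria, held 6.83%, 6.21% and 6.58% in parental and 5.49%, 5.44% and 5.36% in p85β KR-AA libraries. It was 1.205-fold lower (log2 fold change −0.27, adjusted p = 0.0315), and this call ended when any 1 library other than parental replicate 2 was left out, with adjusted p between 0.0589 and 0.116. It also ended without MT-CO1 in the scaling sum (adjusted p = 0.992). MT-ATP6, the proton-channel subunit of ATP synthase, held 4.23%, 4.10% and 4.55% against 3.84%, 3.79% and 3.70%, groups that did not overlap although the test was not passed (log2 fold change −0.19, standard error 0.11, adjusted p = 0.138). MT-ATP8, a small membrane subunit of the same enzyme, held 0.345%, 0.219% and 0.308% against 0.286%, 0.288% and 0.252%, with overlap (log2 fold change −0.08, standard error 0.20, adjusted p = 0.725). The Wilson 95% interval of a share of the 13 was at most ±0.14 percentage points in any library.

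**Figure D2:**
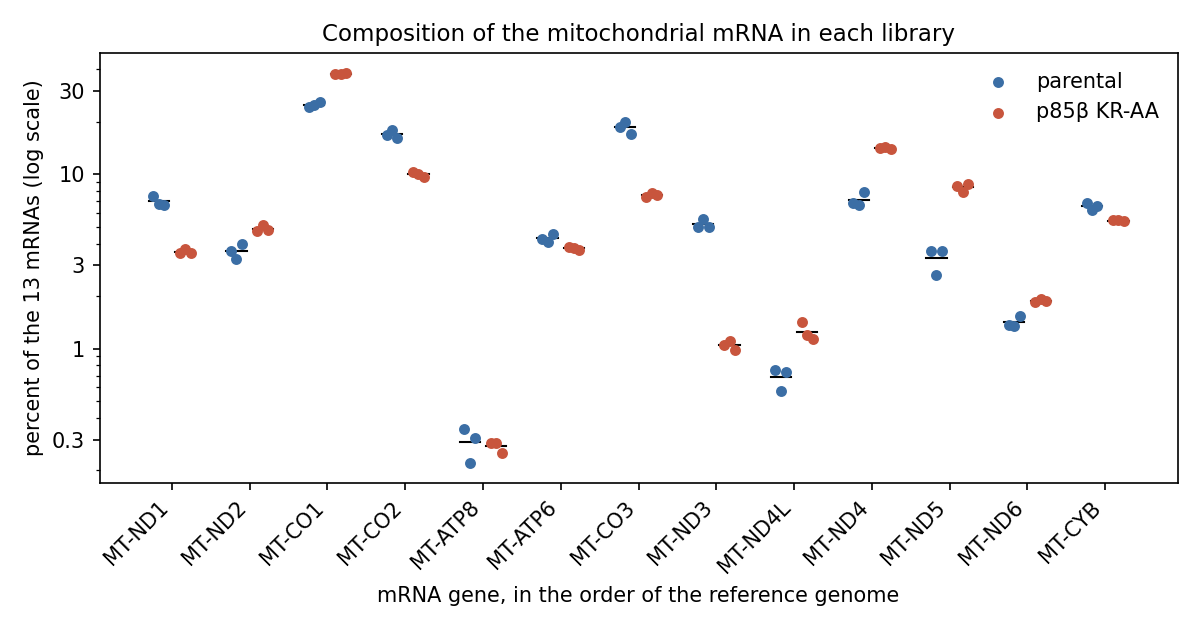
Share of each of the 13 mRNAs in their summed counts (percent, log scale), in the order of the genes along the reference genome, with 1 point per library and a black line at the mean of 3 libraries. MT-ND3, MT-CO3, MT-ND1 and MT-CO2 sit lower in all p85β KR-AA libraries, MT-ND5, MT-ND4, MT-ND4L and MT-CO1 sit higher, and MT-ATP8 overlaps.

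Summed by enzyme, the differences of complex I and of cytochrome c oxidase were smaller because their members moved in opposite directions. The 7 complex I mRNAs made up 28.69%, 26.75% and 29.36% of the 13 in parental and 35.39%, 35.26% and 35.13% in p85β KR-AA libraries. The 3 cytochrome c oxidase mRNAs made up 59.9%, 62.72% and 59.2% against 54.99%, 55.22% and 55.56%. The 2 ATP synthase mRNAs made up 4.576%, 4.321% and 4.857% against 4.13%, 4.08% and 3.947%. None of these 3 sums overlapped between the groups (exact two-sided permutation p = 0.1 for each). Nor did 82.5% of all genes when divided by the sum of the 13 mRNAs. The share of complex I was thus 1.247-fold higher and that of the oxidase 1.097-fold lower.

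Compared per length, the order of the RNAs also changed. CPM by library total, divided by gene length in kilobases, was highest in parental cells for MT-CO2 at 5791 ± 669.4 and MT-CO3 at 5552 ± 800.9 (SD, n = 3). MT-CO1 at 3775 ± 178.0 and MT-ND3 at 3478 ± 412.2 followed. The mean ± SD ranges overlapped within each of these pairs. Within every parental library MT-CO2 nevertheless lay above MT-CO3, and MT-CO1 above MT-ND3. In p85β KR-AA cells MT-CO1 led at 5987 ± 713.4, ahead of MT-CO2 at 3561 ± 299.9, MT-RNR2 at 2782 ± 175.3, MT-ND4 at 2517 ± 236.5 and MT-CO3 at 2357 ± 240.3. The mean ± SD ranges of MT-RNR2 and MT-ND4 overlapped, as did those of MT-ND4 and MT-CO3. Within every p85β KR-AA library MT-RNR2 nevertheless lay above MT-ND4, and MT-ND4 above MT-CO3. MT-ND3 passed from rank 4 to rank 14 of the 15 mRNAs and rRNAs, at 738.6 ± 34.59. MT-ATP8 was lowest in both groups, at 326.1 ± 72.28 and 323.8 ± 10.94. The span from the highest to the lowest mRNA level per length was 17.76-fold in parental and 18.49-fold in p85β KR-AA cells.

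The ratio of genes read from the same processed mRNA did not differ beyond the spread between libraries, whereas that of chosen neighbours that are cut apart did. Such a separation was common, as 82.5% of all genes had groups apart when divided by the sum of the 13 mRNAs. The share among ratios of other gene pairs was not counted. Human mitochondria hold a pair of mRNAs with overlapping reading frames, MT-ATP8 with MT-ATP6 and MT-ND4L with MT-ND4. The overlaps are shown because reads from them fit both genes of a pair. Letters are from the GRCh37 reference, 5′ to 3′ on the plus strand, at chrM:8515-8584 and chrM:10748-10778, and the capitals mark the 46 and 7 bases that belong to both genes.
MT-ATP8 and MT-ATP6: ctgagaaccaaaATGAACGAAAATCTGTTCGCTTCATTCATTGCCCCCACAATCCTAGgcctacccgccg
MT-ND4L and MT-ND4: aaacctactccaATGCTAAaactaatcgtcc

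The ratio of MT-ATP8 to MT-ATP6 counts was 0.08162, 0.05342 and 0.06768 in parental and 0.07445, 0.07597 and 0.06827 in p85β KR-AA libraries, which overlap (log2 difference 0.13, exact two-sided permutation p = 0.6). The ratio of MT-ND4L to MT-ND4 was 0.1096, 0.08575 and 0.09378 against 0.1, 0.08284 and 0.08134, which also overlap (log2 difference −0.13, exact permutation p = 0.5). The authors' counting divides reads of the overlap between both genes, so single levels within a pair are less certain than their sum.

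MT-ND4 and MT-ND3 are parted by MT-ND4L and 1 tRNA, and there were 1.379, 1.204 and 1.579 counts of MT-ND4 per count of MT-ND3 in parental but 13.49, 12.93 and 14.24 in p85β KR-AA libraries. This is a 9.822-fold difference between genes of the same primary transcript. MT-CO3, which directly follows MT-ATP6, had 4.43, 4.873 and 3.764 counts per count of MT-ATP6 in parental and 1.915, 2.048 and 2.044 in p85β KR-AA libraries. MT-CO1 exceeded MT-CO2 by 1.452, 1.387 and 1.593 times in parental and by 3.641, 3.753 and 3.958 times in p85β KR-AA libraries. In all 3 ratios the groups were apart (exact two-sided permutation p = 0.1), a separation whose share among ratios of other gene pairs was not counted. MT-ND5 to MT-CYB, across the light-strand MT-ND6, changed 3.095-fold in the same manner (p = 0.1, exact permutation test). Not all neighbours parted. MT-ND2 and MT-CO1, on either side of a tRNA cluster, had similar log2 fold changes of 0.44 and 0.59 relative to the 13 mRNAs, and their ratio was not tested.

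**Figure D3:**
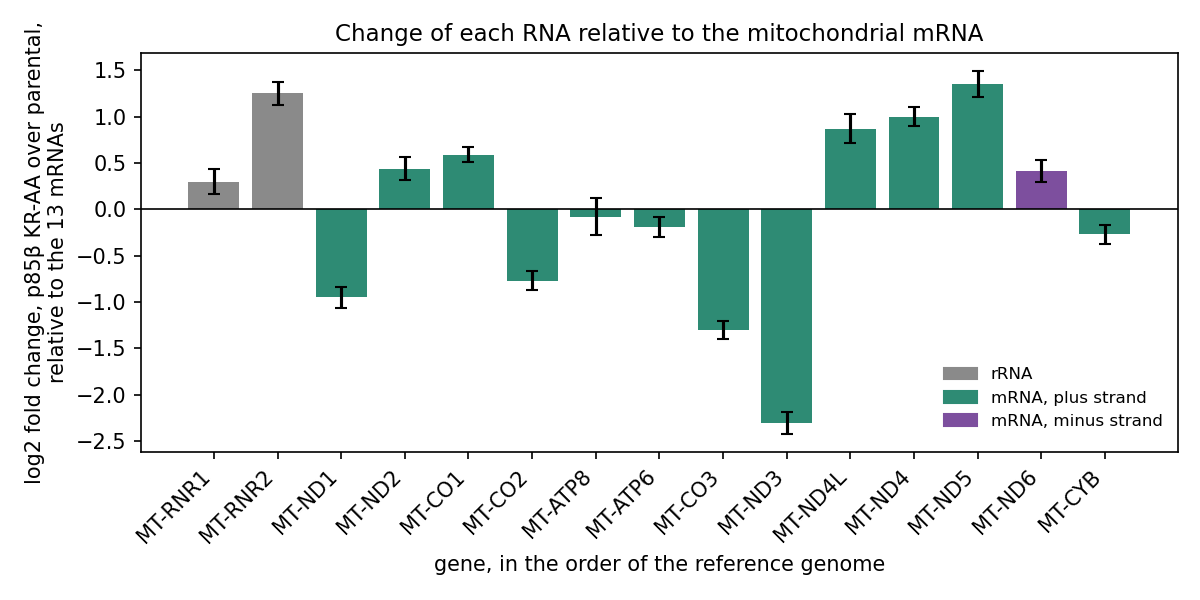
Log2 fold change of p85β KR-AA over parental cells relative to the 13 mRNAs (edgeR fit, bars, with standard errors) for the rRNAs and mRNAs in the order of the reference genome. Some neighbours differ in direction, from −2.30 at MT-ND3 to 0.87 at MT-ND4L and 1.35 at MT-ND5.

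The rRNAs differed from each other as well. MT-RNR2 (ENSG00000210082, chrM:1671-3229), the 16S rRNA of the large mitochondrial ribosomal subunit, had 32465, 36787 and 38129 counts in parental and 112207, 84887 and 94452 in p85β KR-AA libraries. Relative to the 13 mRNAs it was higher by 1.25 on the log2 scale (standard error 0.12, adjusted p = 2.82e-06), where the median of all genes tested lay at 1.17. MT-RNR1 (ENSG00000211459, chrM:648-1601), the 12S rRNA of the small subunit, had 11503, 15182 and 14283 counts against 21632, 16679 and 19056, and did not pass the test relative to the 13 mRNAs (log2 fold change 0.30, standard error 0.14, adjusted p = 0.0740). It did pass without MT-CO1 in the scaling sum (0.56, adjusted p = 0.00418), with the length offset (0.44, 0.011) and without parental replicate 3 (0.39, 0.0354), and was lowest at 0.16 without parental replicate 1. There were 2.822, 2.423 and 2.67 counts of MT-RNR2 per count of MT-RNR1 in parental and 5.187, 5.089 and 4.957 in p85β KR-AA libraries, a 1.928-fold difference with no overlap (exact two-sided permutation p = 0.1). MT-RNR2 also parted from MT-ND1, its neighbour beyond 1 tRNA, by 4.629-fold (p = 0.1, exact permutation test). How many ratios of other gene pairs part in this way was not counted. In libraries selected by poly(A) tail, rRNA counts reflect the tailed part of the rRNA, and a difference in tailing cannot be told apart from a difference in amount.

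The tRNAs gave few counts, and nearly all came from genes on the minus strand of the reference. The 8 minus-strand tRNA genes had 202, 232 and 162 counts in parental and 41, 33 and 18 in p85β KR-AA libraries. The 14 plus-strand genes had 1, 0 and 0 against 5, 1 and 1, and 10 of them had no count in any library. A count of 0 in a library allows at most 3 counts, which is 0.112 to 0.148 CPM. Only 4 tRNA genes, all of the minus strand, reached 10 counts in any library. They are shown in RNA sense, 5′ to 3′, from the GRCh37 reference, with the anticodon in capitals, beside MT-TW, the plus-strand tRNA next to MT-TA, which had no count. They lie at chrM:5587-5655 (MT-TA), chrM:5761-5826 (MT-TC), chrM:5657-5729 (MT-TN), chrM:4329-4400 (MT-TQ) and chrM:5512-5579 (MT-TW).
MT-TA: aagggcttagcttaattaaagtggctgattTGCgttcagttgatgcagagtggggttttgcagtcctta
MT-TC: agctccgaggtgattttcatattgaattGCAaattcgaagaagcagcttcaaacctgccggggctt
MT-TN: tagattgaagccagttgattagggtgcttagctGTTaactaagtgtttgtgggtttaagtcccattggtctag
MT-TQ: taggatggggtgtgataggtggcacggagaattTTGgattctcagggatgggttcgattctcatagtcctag
MT-TW: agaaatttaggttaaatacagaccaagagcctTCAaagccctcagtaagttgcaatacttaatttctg

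MT-TA, the alanine tRNA, had 132, 111 and 67 counts in parental and 18, 5 and 8 in p85β KR-AA libraries. MT-TC, the cysteine tRNA, had 36, 81 and 70 against 9, 22 and 8. MT-TN, the asparagine tRNA, had 14, 18 and 12 against 5, 0 and 1. For each of them every p85β KR-AA library lay below every parental library, although the counts are small. When divided by the sum of the 13 mRNAs, 82.5% of all genes had groups apart, in either direction. Relative to the 13 mRNAs these tRNAs had log2 fold changes of −3.51, −2.39 and −3.0 (edgeR adjusted p = 1.36e-05, 0.00117 and 0.00139). The filter on low counts kept them only through their parental libraries. A lower value was thus built into the choice, and these tests are no separate support for it. Without p85β KR-AA replicate 1 the value of MT-TN was −4.63, and without replicate 2 of that group the value of MT-TC was −3.17. MT-TQ, the glutamine tRNA, did not pass the filter on low counts, with 10, 11 and 8 against 1, 0 and 0. Its share of the library total was 31.6-fold higher in parental cells, with a 95% interval for counting error from 5.23 to 1290. Of the other minus-strand tRNAs, MT-TS1 had 2, 5 and 4 counts in parental and 7, 6 and 0 in p85β KR-AA libraries, with overlap. MT-TY had 7, 5 and 1 against 0, 0 and 1, and MT-TE and MT-TP had at most 1 count in a library. MT-TA, MT-TN and MT-TC lie together with 1 more minus-strand tRNA in the cluster between MT-ND2 and MT-CO1, where only 1 tRNA is on the plus strand. Both flanking mRNAs gained share of the 13 in p85β KR-AA cells, opposite to these tRNAs. Since tRNAs carry no poly(A) tail and the kit does not keep the strand, these counts cannot be told apart from longer RNAs of either strand that cover the genes. Of the 6 nuclear genes tested whose RNA has little or no poly(A) tail, 2 were lower and 0 higher by 3-fold or more with an adjusted p under 0.01 after TMM normalization over all genes, where 17.6% of all genes were lower and 28.6% higher. With library totals, the length offset, and length and GC offsets, 0 of the 6 passed the edgeR thresholds as lower, and their median log2 fold change was −0.16, 0.28 and 0.87. The share of all genes called in these settings was not counted. The 2 were SNORD3A (−2.17) and RN7SK (−1.74), the latter with 79, 313 and 76 counts in parental and 82, 80 and 131 in p85β KR-AA libraries. Only parental replicate 2 stood above the rest.

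**Figure D4:**
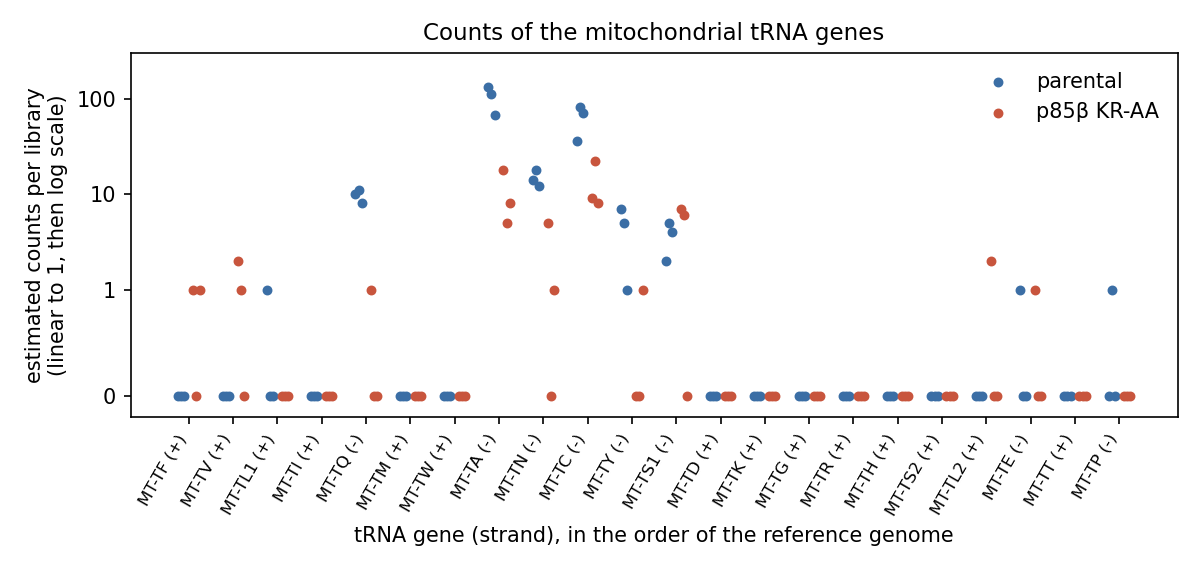
Estimated counts of the 22 mitochondrial tRNA genes (linear to 1, then log scale), in genome order with the strand in brackets, 1 point per library. Only minus-strand genes reach 10 counts. MT-TQ, MT-TA, MT-TN and MT-TC, named for reaching 10 counts in a library, are lower in all p85β KR-AA libraries, while MT-TS1 overlaps between the groups.

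Compared with all genes rather than with each other, the mitochondrial mRNAs lay mostly lower in p85β KR-AA cells. Their sign depended on the scaling, and their place below the median gene on the correction for gene length. With TMM normalization, which centers the bulk of the genes, 0 mRNAs were higher and 4 lower by 3-fold or more with an adjusted p under 0.01, against 28.6% and 17.6% of all 16059 genes tested. The 4 were MT-ND3 (log2 fold change −3.17), MT-CO3 (−2.17), MT-ND1 (−1.82) and MT-CO2 (−1.64). At an adjusted p under 0.05 with no fold, 1 mRNA was higher and 9 were lower, against 45.9% and 35.7% of all genes. The 1 higher was MT-ND5 (log2 fold change 0.51, standard error 0.15, adjusted p = 0.00817). The other 5 lower were MT-CYB at −1.13, MT-ATP6 at −1.04, MT-ATP8 at −0.93, MT-ND6 at −0.44 and MT-ND2 at −0.42. Of the rRNAs, MT-RNR2 was at 0.40 (adjusted p = 0.0141) and MT-RNR1 at −0.56 (0.00419). The 3 tRNAs tested, which passed the filter only through parental libraries, were lower at −4.38 for MT-TA, −3.84 for MT-TN and −3.28 for MT-TC. On this scale too leaving out p85β KR-AA replicate 1 moved MT-TN (to −5.36) and leaving out replicate 2 moved MT-TC (to −3.94). The call of MT-RNR2 ended without parental replicate 1 (adjusted p = 0.0621), without p85β KR-AA replicate 3 (0.0549), with the replicate block (0.0548) and with length and GC offsets (0.14 on the log2 scale, adjusted p = 0.224).

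Scaling by library totals moved the median gene up by 0.92 on the log2 scale, and on that scale 6 mRNAs were higher and 4 lower at an adjusted p under 0.05. MT-CO1 then stood at 0.67 in place of −0.26, MT-ND2 at 0.51, MT-ND6 at 0.49 and MT-RNR1 at 0.37, all reversed in sign. MT-ND3, MT-CO3, MT-ND1 and MT-CO2 stayed below 0 at −2.23, −1.23, −0.89 and −0.70. With a correction for gene length alone 7 mRNAs were higher and 3 lower, and with length and GC content 0 were higher and 8 lower. The share of all genes called was not counted for library totals or for these corrections. The direction of the mRNAs as a group against the rest of the transcriptome therefore cannot be given, whereas the differences between them do not depend on how libraries are scaled to each other.

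The change in share was correlated with the annotated length of the coding unit. Over the 10 coding units of the heavy strand, with the overlapping pairs joined, the log2 fold change of the share and the annotated length had a Spearman correlation of 0.89 and a Pearson correlation of 0.93 with log2 length. The shortest unit, MT-ND3 with 346 bases, was lowest at −2.30 and the longest, MT-ND5 with 1812 bases, highest at 1.35, with the pair MT-ND4L/MT-ND4 of 1668 bases at 0.98 and MT-CO1 of 1542 bases at 0.59. Some units did not keep to the order. MT-CO3 with 784 bases was at −1.30, below MT-CO2 with 684 bases at −0.77, MT-ND1 with 956 bases at −0.95 was below the shorter pair MT-ATP8/MT-ATP6 at −0.18, and MT-CYB with 1141 bases at −0.27 was below MT-ND2 with 1042 bases at 0.44. For single genes by their own length the Spearman correlation over 13 mRNAs was 0.39. Across all 16059 genes tested, fold change and length were also correlated (Spearman 0.45), and the mitochondrial relation was not tested against it. Genes share libraries and are no replicates, so these correlations are descriptions. With an offset that removed the relation with length seen over all genes, 12 of the 13 mRNAs kept the sign of their change relative to the 13, and the span from lowest to highest narrowed from 3.64 to 3.11 on the log2 scale. With length and GC content removed, 13 of 13 kept their sign over a span of 3.38. These offsets use the length of the gene and not that of the joint mRNA.

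**Figure D5:**
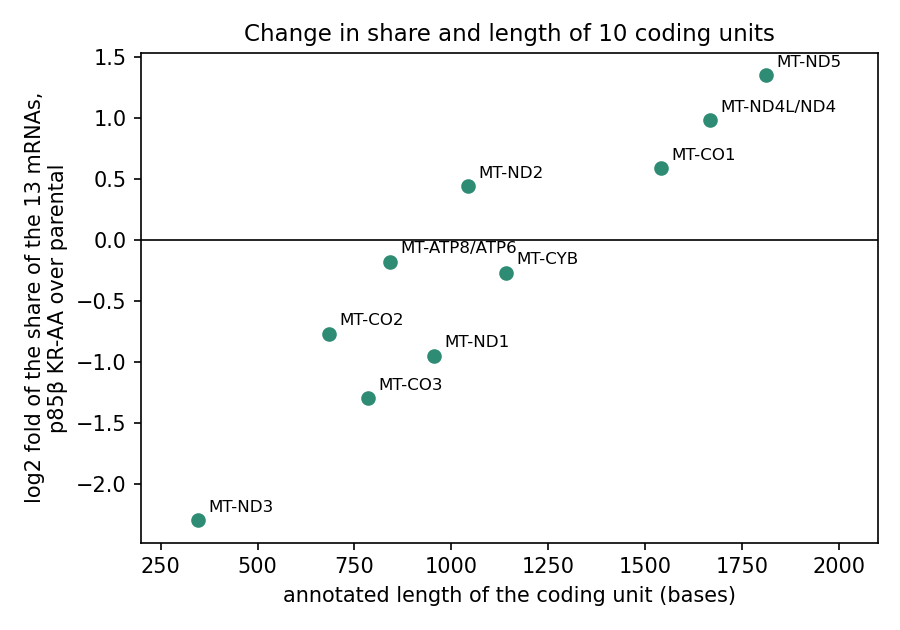
Log2 fold of the share of the 13 mRNAs (p85β KR-AA over parental, ratio of means of 3 libraries) against the annotated length in bases of 10 heavy-strand coding units. The points run from MT-ND3 at 346 bases and −2.30 to MT-ND5 at 1812 bases and 1.35.

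Nuclear copies of mitochondrial DNA took few of the counts. The table holds 408 such genes, whose summed counts were 0.552% to 0.748% of those of the 37 genes in any library. MTATP6P1, a near-identical copy on chromosome 1, had the most relative to its source, 6.52% to 8.19% of the MT-ATP6 counts. MTRNR2L1 had 0.871% to 1.16% of those of MT-RNR2 and MTCO1P12 had 0.807% to 1.2% of those of MT-CO1. MTND6P3 had 0.397% to 0.861% of the counts of MT-ND6, MTND2P28 0.0449% to 0.134% of those of MT-ND2, and MTCO1P28 at most 0.00799% of those of MT-CO1. When these 6 copies were added to their sources, none of the 18 mitochondrial genes tested changed its call.

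Nuclear genes that make, process and stabilize mitochondrial RNA did not move as 1 group. Over 7 lists with 91 tested genes, 19 were higher and 20 lower in p85β KR-AA cells by 3-fold or more with an adjusted p under 0.01, which is 20.9% and 22% against the 28.6% and 17.6% of all genes, with a median log2 fold change of 0.29 against 0.32. With library totals the counts were 38 and 6, and with length and GC offsets 5 and 8, so the split depended on the scaling. All values of single genes that follow are on the TMM scale.

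Among 8 transcription genes 2 were higher and 1 lower. POLRMT, the mitochondrial RNA polymerase, was lower at 391 ± 39.7 CPM in parental and 72.9 ± 5.95 in p85β KR-AA cells (CPM here by TMM-scaled library size, log2 fold change −2.42, standard error 0.14, adjusted p = 9.29e-09). It stood at −1.49 with library totals and −1.06 with length and GC offsets, both under the fold threshold. TFB2M, which opens the promoter for the polymerase, was higher at 3.04 ± 0.449 and 9.18 ± 2.03 CPM (log2 fold change 1.60). TFAM, which packages the genome and bends promoter DNA, had a log2 fold change of 1.04 and the elongation factor TEFM one of 0.81, both under the fold threshold. With length and GC offsets TFB2M stood at 1.06, under the fold threshold, TEFM at 0.47 and TFAM, with its sign reversed, at −0.83.

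Among 15 genes of RNA processing 2 were higher and 5 lower. ELAC2, which cuts tRNA 3′ ends, was lower (log2 fold change −1.78), as were HSD17B10 (−2.61), a subunit of the enzyme that cuts tRNA 5′ ends, and the pseudouridine synthase PUS1 (−2.62). TRIT1, which modifies tRNA bases next to the anticodon, was higher (2.25). With length and GC offsets ELAC2 stood at −1.46 and HSD17B10 at −1.34, under the fold threshold, PUS1 at −1.87 and TRIT1 at 1.64. Among 16 genes of mRNA stability and decay 6 were higher and 3 lower. LRPPRC, which binds and stabilizes the mRNAs, was higher at 15.7 ± 2.81 and 126 ± 29.6 CPM (log2 fold change 3.0, standard error 0.20, adjusted p = 3.45e-08), whereas its partner SLIRP was at −1.02, under the fold threshold. PNPT1, a mitochondrial exoribonuclease, was higher at 2.41. MTPAP, the mitochondrial poly(A) polymerase, was higher at 1.79. With length and GC offsets 0 of the 6 higher genes passed the edgeR thresholds, and LRPPRC stood at 0.77, PNPT1 at 1.16 and MTPAP, with its sign reversed, at −0.10. MRPL12 at −3.32 and TACO1 at −2.95, a translational activator of MT-CO1, were lower, and stood at −0.72 and −1.66 with length and GC offsets. MT-CO1 itself held more of the 13 mRNAs in these cells, and stood at −0.26 on the TMM scale.

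Of 14 genes for rRNA maturation, 1 was higher and 6 were lower, among them the helicase DHX30 (log2 fold change −2.33) and the 16S rRNA methyltransferase MRM1 (−2.30). On the same TMM scale MT-RNR2 stood at 0.40, near the median gene at 0.32, and at 0.14 with length and GC offsets. With library totals 1 and 0 of these 14 were higher and lower and DHX30 and MRM1 stood at −1.41 and −1.37, under the fold threshold, and with length and GC offsets 0 were higher and 3 lower. Of 16 replication and nucleoid genes 2 were higher and 3 lower, with RRM2B, a ribonucleotide reductase subunit that supplies nucleotides, at 2.26, ATAD3A at −3.77 and ATAD3B at −2.56. ATAD3A and ATAD3B are close paralogs whose reads may be divided wrongly. Of 13 translation factors 3 were higher and 1 lower, with GUF1 at 2.02 and the initiation factor MTIF2 at 1.81, and the elongation factor TUFM at −2.35. Of 9 biogenesis regulators tested 3 were higher and 1 lower, the last being the nuclear receptor ESRRA at −2.50. With length and GC offsets DHX30 stood at −1.53, MRM1 at −0.35, ATAD3B at −1.04, GUF1 at 0.36, MTIF2 at 0.94, TUFM at −0.96 and ESRRA at −0.68. All of these were under the fold threshold, while RRM2B stood at 1.76 and ATAD3A at −2.03. With library totals the numbers higher and lower were 6 and 0 for transcription, 5 and 2 for processing, 9 and 2 for stability, 3 and 2 for replication, 8 and 0 for translation and 6 and 0 for biogenesis, so that many calls of lower genes, those of ELAC2, TUFM and ESRRA among them, ended on that scale.

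Nuclear partners of the mitochondrial products were lower more often than higher. Of 78 mitochondrial ribosomal protein genes 0 were higher and 32 lower, 41.0% against 17.6% of all genes, with a median log2 fold change of −1.27, and MRPL54 was at −3.95. Of 78 nuclear subunits of the respiratory chain and ATP synthase, 1 was higher and 39 lower, 50.0%, with a median of −1.57. NDUFB7 of complex I was at −3.49, CYC1, the cytochrome c1 of complex III, at −3.48, and UQCRC2 of the same complex was the 1 higher at 1.69. With length and GC offsets MRPL54 stood at −1.41, NDUFB7 at −0.67, CYC1 at −0.99 and UQCRC2 at 0.66, all under the fold threshold. With library totals 4 and 18 ribosomal protein genes, and 4 and 14 subunits, were higher and lower. These are mostly short genes, with median lengths of 1220 and 861.5 bases, and with the length offset the counts of lower genes were 16 and 14. The share of all genes called was not counted with library totals or with the length offset. These lists and the mitochondrial mRNAs come from the same libraries, and their directions were not compared by a test.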

How the data were processed

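Total RNA was made into libraries with the Illumina TruSeq RNA kit. The study's methods name SeqPrep and Sickle for trimming of paired-end reads, and FPKM as the expression value. The submitters' processing notes name HISAT2 2.1.0, RSEM 1.3.1, DESeq2 1.24.0 and hg18. For each Ensembl gene and each of 6 libraries the authors deposited an estimated count, without normalization, and as another column a gene length in bases, which for all 37 mitochondrial genes equals that of GENCODE 44 lifted to GRCh37. Positions, symbols and sequences are from that annotation and genome (56745 of 58884 identifiers matched).

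Counts were rounded and tested with edgeR 4.0.16 under R 4.3.3 (filterByExpr at 10 counts and a total of 15, quasi-likelihood F test, Benjamini-Hochberg adjustment over 16059 genes), once with TMM normalization and once with library sizes set to the sum of the 13 mitochondrial mRNAs. The design assumed whole counts. The filter kept all 13 mRNAs, both rRNAs and 3 of 22 tRNAs. Sums and ratios were compared by exact permutation tests (SciPy 1.17.1). The code was tested on simulated data. Alternatives were DESeq2 1.42.0, library totals, TMM without the 37 genes, other sets of mitochondrial genes for scaling, other filters, a replicate block, length and GC offsets (splines with 5 degrees of freedom), and each library left out. The length offset and the length and GC offset on the mitochondrial scale, and the addition of nuclear copies, were chosen after seeing the data. Members, gene lists and tests were chosen with earlier results of these data known. Named were all mRNAs and rRNAs, tRNAs with 10 or more counts in a library, 8 core nuclear genes, the 6 nuclear copies with a mean of 10 or more counts in a group, and up to 2 called genes per direction in every other list with the largest fold change at a mean log2 CPM of at least 3. SNORD3A, RN7SK, MT-TS1, MT-TY, MT-TE and MT-TP were named after their values were seen.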

Additional observations from a re-analysis of the deposited data

How the results depend on the processing

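The share of the library taken by rRNA, that taken by tRNA and the rRNA to mRNA ratio kept their direction under every alternative run, with log2 ratios of 1.03 to 1.17, −2.89 to −2.51 and 0.94 to 1.15 with each library left out, while the mRNA share had no direction (−0.02 to 0.13, the lowest without p85β KR-AA replicate 3). Relative to the 13 mRNAs the counts of 6 higher and 5 lower mRNAs were 6 to 6 and 4 to 6 with 1 library left out. MT-ATP8 and MT-ATP6, not called, changed sign when MT-CO1 was left out of the scaling sum (0.19 and 0.08), MT-ATP8 also without parental replicate 1 (−0.25 to 0.06 over libraries left out) and MT-ATP6 with the length offset (0.09). MT-ATP8 passed as lower with length and GC offsets (−0.53, adjusted p = 0.0357), and MT-ATP6 with the rRNAs added to the sum (−0.32, 0.0114) and without parental replicate 2 (−0.22, 0.0475). MT-CYB stood at 0 without MT-CO1 in the sum (adjusted p = 0.992). The tRNA results rest on few counts.

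With TMM, the number of mRNAs higher at an adjusted p under 0.05 (1) was 6 with library totals, 2 with at least 10 counts in every library, 7 with the length offset and 0 with length and GC, and of those lower (9) it was 4 with library totals, 3 with the length offset and 7 to 10 with 1 library left out. The number lower by 3-fold or more (4) was 1 with library totals, 1 with the length offset, 1 with length and GC, and 3 to 4 with 1 library left out. The 3 lower tRNAs were 5 without a filter and 0, none being tested, with at least 10 counts in every library. Signs turned for MT-RNR1 (0.37 with library totals, 0.73 with the length offset), MT-ND2 (0.51 and 0.81), MT-CO1 (0.67 and 0.64) and MT-ND6 (0.49 and 1.00), and with the length offset alone for MT-ATP8 (0.23), MT-ATP6 (0.37) and MT-CYB (0.04). MT-ND4L, at 0.01, was −0.06 with DESeq2 and −0.08 to 0.12 with 1 library left out.

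In the nuclear lists, the 19 higher and 20 lower genes of the 7 lists were 38 and 6 with library totals and 5 and 8 with length and GC offsets. The 32 lower ribosomal protein genes were 18 with library totals, 16 with the length offset and 16 with length and GC, and the 39 lower respiratory chain subunits were 14, 14 and 18. The share of all genes called with library totals and with the offsets was not counted, and the causes of these shifts were not tested.

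With a replicate block, 1 mRNA was higher and 9 lower with TMM, as without it, and 5 higher and 4 lower relative to the 13 mRNAs, where MT-ND6 and MT-CYB lost their calls (adjusted p = 0.0612 and 0.130). On the TMM scale MT-RNR2 lost its call (0.0548). Same-numbered libraries correlated at −0.204 to 0.175 and others at −0.243 to 0.324 in their deviations from the group means, and 1 of 3 parental libraries correlated best with its own number. Over the shares of the 13 mRNAs same-numbered libraries correlated at 0.03 to 0.487, and 2 of 3 parental libraries correlated best with their own number, a hint from the data and not the design. In neither measure was every same-numbered pair above 0.1, so the numbers were not taken to pair the libraries. Prior degrees of freedom were infinite with the block, without a filter, and with length and GC offsets relative to the 13 mRNAs.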
